A study of Mus musculus with 12 samples.

Results

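The 6 control libraries of a study of the homeodomain transcription factor Nkx6-1 in mouse spinal cord are described here. They were chosen as all control columns of the deposited expression table, 6 of the 12 libraries in the series, with no selection on values. Astrocytes are the glia that take up glutamate and potassium around synapses, cover blood vessels with their end-feet and are coupled by gap junctions. A green fluorescent protein placed under regulatory sequence of Aldh1l1, a folate-metabolism enzyme gene, is a common means of sorting them from nervous tissue. Oligodendrocytes, the cells that wrap axons in myelin, carry very abundant myelin mRNAs and lie among the astrocytes of spinal white matter.

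The controls were 3 female and 3 male libraries, each labelled as GFP-positive astrocytes from spinal cord of Aldh1l1-GFP mice. The other 6 libraries of the series, 3 labelled female and 3 labelled male, were conditional knockouts (cKO) of Nkx6-1 on the same reporter. They enter only where spread between libraries is compared. The labels give no age, no Cre driver for the cKO and no statement that replicates came from separate animals, so the spreads and p-values below measure differences between these libraries, which may be technical. The males carry library numbers 1 to 8 and the females 14 to 18, so sex and position in the library series cannot be told apart.

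Values are normalized counts, that is, reads per gene divided by 1 factor for each library, and they compare libraries for 1 gene. Comparisons between genes use TPM, a share of transcripts computed from the same reads per base of exon. In lists of values, libraries of a sex stand in the order of their replicate numbers. The controls held 2246412 to 9054934 reads in genes, and the ribosomal precursor entry Rn45s, left out below, took 20.9% to 38.8% of them. A read was seen for 14120 to 15255 genes per library. No control pair agreed within counting noise, since chi-square per degree of freedom was 15.5 at the least.

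Stretches of genomic sequence are shown because they lie in front of genes that the results turn on: the gene behind the reporter, the pair of genes with the widest autosomal spread beside Ngp, and an immediate-early gene whose mRNA was high in every sort. Each is the 120 bases before the RefSeq transcript start on GRCm38.p6, read along the gene's strand, and capitals mark the motif TATAAA, the motif CCAAT and the motif TGACGT wherever a search of both strands found one.

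Aldh1l1 chr6:90550673-90550792 (+): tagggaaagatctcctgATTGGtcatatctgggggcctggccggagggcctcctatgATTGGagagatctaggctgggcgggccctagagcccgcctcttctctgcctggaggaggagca
S100a8 chr3:90668951-90669070 (+): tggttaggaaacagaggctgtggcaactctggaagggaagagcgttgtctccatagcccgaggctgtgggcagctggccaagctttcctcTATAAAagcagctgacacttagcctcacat
S100a9 chr3:90695722-90695841 (-): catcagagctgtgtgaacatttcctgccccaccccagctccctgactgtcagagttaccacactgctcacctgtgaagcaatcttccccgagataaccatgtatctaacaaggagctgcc
Fos chr12:85473770-85473889 (+): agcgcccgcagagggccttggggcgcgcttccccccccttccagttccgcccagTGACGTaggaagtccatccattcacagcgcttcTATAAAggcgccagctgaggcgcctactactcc

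The Aldh1l1 window held CCAAT at 2 places, both on the other strand and so written ATTGG. The S100a8 window held TATAAA, and the Fos window held TATAAA and TGACGT. The S100a9 window held none of these letters. Among 32851 RefSeq windows of the same length, 6.34% held TATAAA, 21.3% held CCAAT and 4.55% held TGACGT.

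The most abundant mRNAs of the control sorts were those of myelin, followed by those of astrocyte glutamate and ion transport. Mbp, a myelin basic protein gene whose mRNA is known to be carried into the processes of oligodendrocytes, alone held 3.71% of the mean total outside Rn45s. The 30 genes with the highest mean held 17.2%, and protein-coding genes held 97.0%. Of these 30 genes, 6 stand in a list of mature oligodendrocyte markers, 5 in a list of astrocyte markers and 19 in at least 1 of the 22 marker lists used here. The 30th gene, Ermn, averaged 6365 normalized counts and the 31st 6136.

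Mbp had 92703, 53171 and 258431 normalized counts in the females, and 44774, 43566 and 161650 in the males. Female 3 and male 3 were the highest libraries, and the highest exceeded the lowest 5.93-fold. Per base of exon Mbp averaged 16145 ± 11935 TPM (SD, n = 6). Mobp, another myelin gene, had 5174, 5731 and 11155 normalized counts in the females and 4257, 7359 and 7045 in the males, with female 3 highest. Not every gene of the mature oligodendrocyte list followed these 2. Ermn had 7016, 7398 and 4346 in the females and 6041, 8889 and 4498 in the males, with female 3 lowest. Apod, a lipid-carrier gene, had 23021, 24560 and 12251 in the females and 48687, 26569 and 37923 in the males. Every male value of Apod lay above every female one.

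By normalized counts the highest astrocyte gene was Slc1a2, the main glutamate uptake carrier (chr2:102658659-102790784, plus strand). Per base of exon it averaged 2220 TPM, below Sparcl1 at 5250 TPM, Atp1b2 at 3514 TPM and Glul at 2821 TPM. Slc1a2 had 39675, 7373 and 41923 normalized counts in the females and 11483, 8273 and 24541 in the males. Atp1b2, a glial sodium pump subunit gene, had 14208, 3123 and 15536 in the females and 4778, 3403 and 8446 in the males. For both genes, female 1, female 3 and male 3 were the highest libraries, and female 2 was the lowest. Sparcl1, which codes for a secreted matrix protein, had the same 3 highest libraries, between 4754 in female 2 and 20295 in female 3. Glul, the glutamine synthetase gene that is also active in oligodendrocytes, differed from them, with its highest value of 9096 in male 2 and its lowest of 4598 in female 2.

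**Figure D1:**
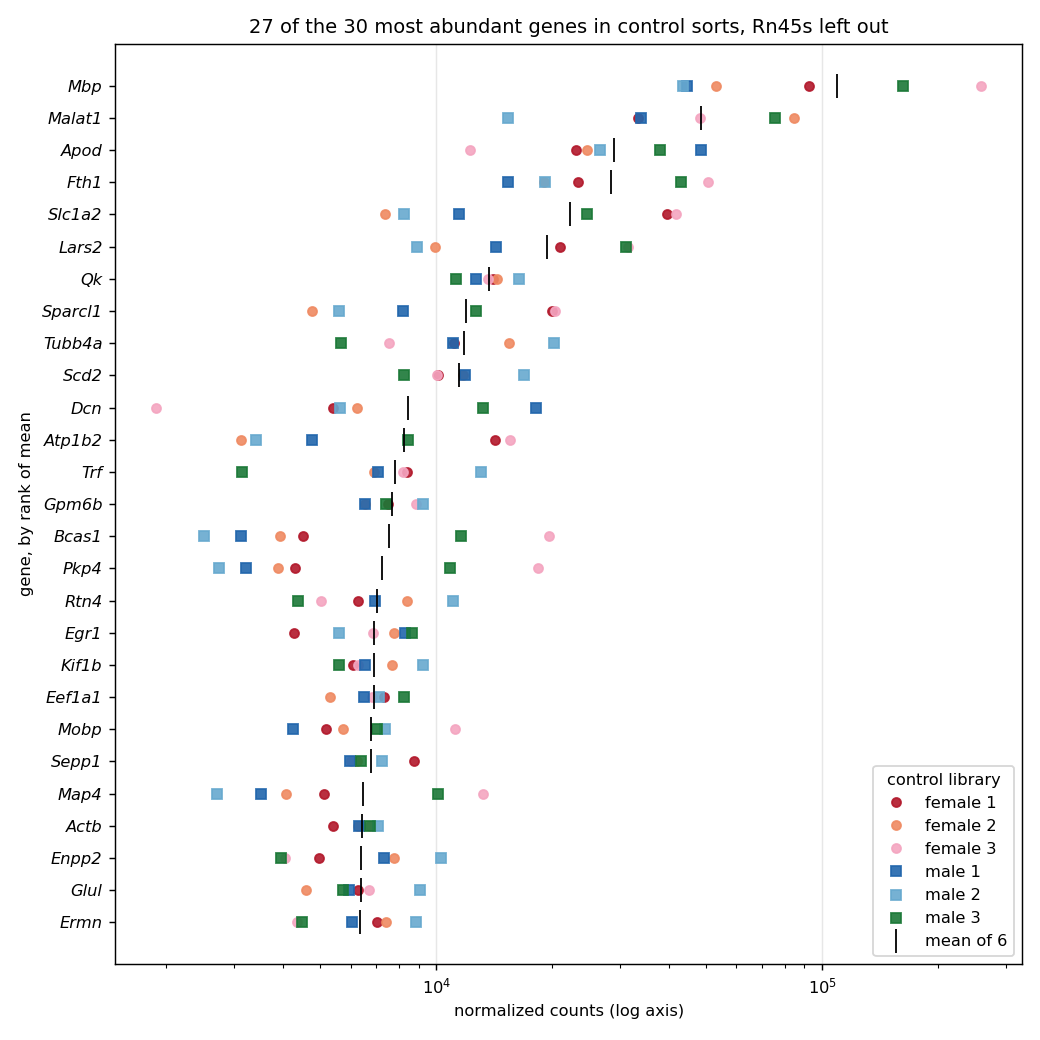
Normalized counts (log axis) of 27 of the 30 genes with the highest mean over the 6 control libraries, Rn45s left out, with 1 point per library (circles, female; squares, male) and a bar at the mean. Mbp spans 43566 to 258431, while Actb spans 5399 to 7085.

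Malat1, a nuclear long non-coding RNA, was the third gene, with 33347, 84665 and 48143 normalized counts in the females and 34008, 15312 and 75683 in the males. Fth1, the ferritin heavy chain, led when length was taken into account, at 22154 TPM, ahead of Apod at 17378 TPM. The length used is that of all annotated exons of a gene joined, 8123 bases for Mbp. TPM is too low for genes whose main transcripts are shorter than that, so this order depends on the lengths used. Dcn, the gene of the fibroblast matrix protein decorin, had 5413, 6240 and 1884 in the females and 18144, 5634 and 13255 in the males. Male 1 and male 3 were highest for Dcn and female 3 was lowest. Of the 30 genes, 19 were also among the 30 highest by TPM. The long transcripts of Slc1a2, Qk and Kif1b were among the 11 that left, and short ones such as Cst3, S100b and Cnp, named after their values were seen, were among the 11 that entered.

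The spread of these genes between libraries was wide. The SD of log2(normalized count + 1) exceeded 0.5 for 17 of the 30 and ran between 0.14 for Actb, the beta-actin gene, and 1.17 for Bcas1, a gene of newly myelinating oligodendrocytes. Bcas1 had 4522, 3938 and 19645 normalized counts in the females and 3124, 2500 and 11573 in the males. In female 3 it made up most of the differentiating oligodendrocyte list, which summed to 23285 there. Its pattern was not that of the list, whose mean log2 value over the members was lowest in female 3, at 7.30, and highest in female 1, at 7.87. Qk, which codes for an RNA-binding protein of glia, varied less, between 11279 in male 3 and 16369 in male 2. Female 1, female 3 and male 3 were the 3 highest libraries for 10 of the 30 genes (33.3%), compared with 585 of the 5262 genes that averaged at least 100 (11.1%). They included Mbp, Fth1, Slc1a2, Lars2, Sparcl1, Atp1b2, Bcas1, Pkp4 and Map4. The same 3 libraries had the highest Rn45s shares, at 32.7% and 38.8% in female 1 and female 3 and 38.1% in male 3. Lars2 was placed here in the list of abundant non-coding RNA. It had 20888, 9914 and 31487 normalized counts in the females and 14270, 8941 and 31031 in the males. Whether its reads are those of the gene's mRNA was not tested. Female 3 and male 3 were also the shallowest, and the part of depth and Rn45s in these patterns was not tested. Female 2, male 1 and male 2 were the highest for 5 of the 30 genes, among them Scd2, Rtn4, Kif1b and Enpp2, and for 592 of the 5262 (11.3%).

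**Figure D2:**
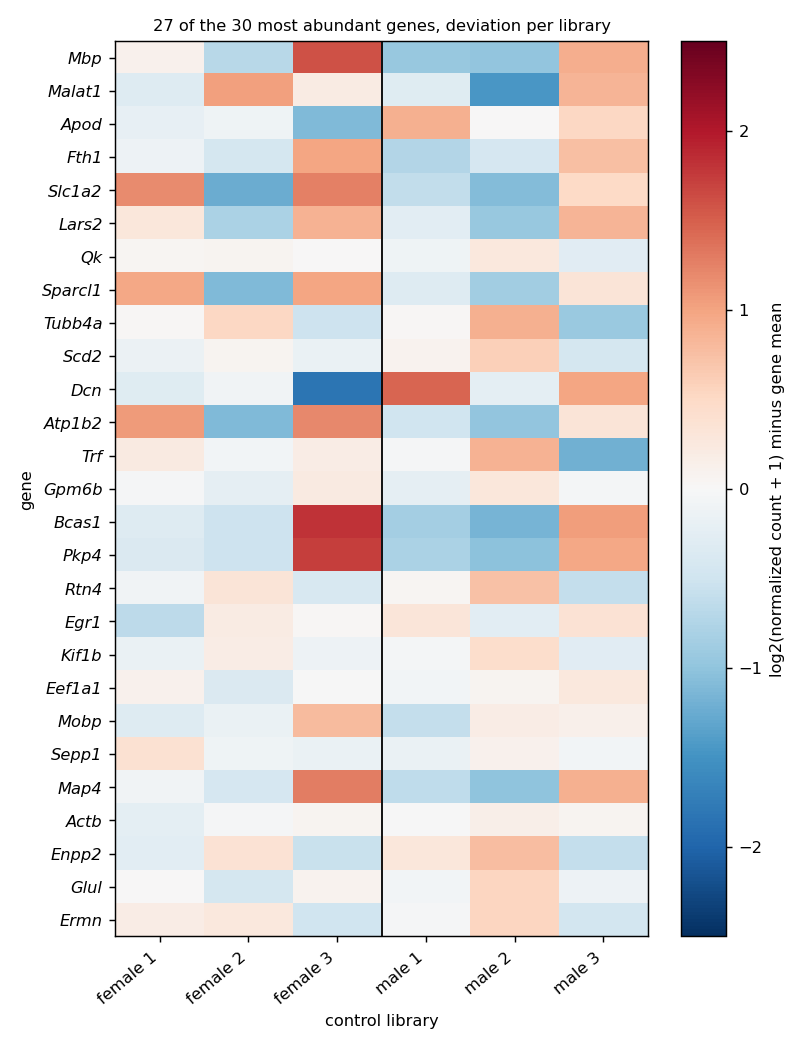
Deviation of each library from the gene's mean of log2(normalized count + 1) for 27 of the 30 most abundant genes, with females left of the line and males right of it. The astrocyte genes Slc1a2 and Atp1b2 are above their means in female 1, female 3 and male 3, and Actb is near its mean in every library.

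The label of the sorts was checked against the marker lists, and RNA of astrocytes was found in every library together with RNA of other classes. All 26 measured astrocyte markers had reads in all 6 libraries, at a median of 373 TPM. Their summed value was 5.0%, 1.29% and 4.50% of the total outside Rn45s in the females, and 1.87%, 1.41% and 2.94% in the males. Mature oligodendrocyte markers, 22 genes with a median of 878 TPM, summed to 7.59%, 7.23% and 11.03% in the females and 7.09%, 8.02% and 8.97% in the males. The oligodendrocyte sum was above the astrocyte sum in 6 of 6 libraries, with Mbp making up 258431 of 352283 normalized counts in female 3. The mean log2 value over the members, in which Mbp weighs no more than any other gene, was lower for the oligodendrocyte list than for the astrocyte list in female 3, at 10.63 and 10.88, and close to it in female 1, at 10.89 and 10.88. In the other 4 libraries it was higher for the oligodendrocyte list. Between libraries, this mean of the oligodendrocyte list was highest in male 2, at 11.53, and lowest in male 3, at 10.29. The oligodendrocyte sum, in which Mbp weighs most, was instead highest in female 3. In bulk RNA, fewer cells of a type and less RNA per cell cannot be told apart, so these shares are shares of RNA and not of cells.

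Aldh1l1 itself, the gene whose regulatory sequence drives the reporter, was low, with 235, 139 and 268 normalized counts in the females and 157, 32.1 and 156 in the males. Its mean was 48.4 TPM. Gfap, the intermediate filament gene of fibrous and reactive astrocytes, had 1695, 353 and 1336 in the females and 181, 249 and 551 in the males. Female 1 and female 3 were highest for both genes. Aqp4, the water channel of astrocyte end-feet, had 7699, 1334 and 6503 in the females and 2007, 1412 and 3721 in the males. Nkx6-1 was low, at 11.7, 3.90 and 15.2 normalized counts in the females and 1.51, 3.75 and 4.29 in the males. In these libraries 3 reads would be 1.84, 1.67 and 3.81 in the females and 1.51, 1.25 and 6.43 in the males. Only male 1 and male 3 were thus at or under 3 reads. Of the 25 astrocyte markers that averaged at least 100, 20 had female 1, female 3 and male 3 as their 3 highest libraries, against 11.1% of all such genes. The astrocyte sum varied 4.11-fold between libraries, and the median log2 SD of its members was 0.99, against 0.41 over all 5262 genes. The oligodendrocyte sum varied 1.79-fold.

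Oligodendrocyte precursor markers summed to 0.46% to 0.753% of the total and were steadier, varying 1.68-fold. Pdgfra, the growth factor receptor that marks precursors and also fibroblasts, had 1655, 1464 and 1793 normalized counts in the females and 2653, 2348 and 1440 in the males. Female 3, male 1 and male 2 were the 3 highest libraries for 8 of the 13 precursor genes that averaged at least 100, and for 5.47% of all 5262 such genes. Ptprz1, a receptor phosphatase gene shared by precursors and astrocytes, was the highest of the list, between 3393 in female 2 and 5680 in female 3.

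Vascular and connective tissue RNA was present in all sorts. Endothelial markers summed to 0.384%, 0.182% and 0.33% in the females and 0.249%, 0.201% and 0.393% in the males, and 11 of the 15 that averaged at least 100 were highest in female 1, female 3 and male 3. Cldn5, the tight-junction gene of endothelium, lay between 54.0 in female 2 and 169 in female 3. Mural markers, led by Rgs5 of pericytes, had a median of 31.6 TPM. Fibroblast and meningeal markers summed to 0.354%, 0.659% and 0.21% in the females and 0.998%, 0.503% and 0.68% in the males. Col1a1, a type I collagen gene, had 242, 889 and 97.8 normalized counts in the females and 558, 454 and 446 in the males. Igf2, a growth factor gene of meninges and vessels, had 3719 in female 2, and between 390 and 630 in the other libraries. The fibroblast list varied 4.12-fold between libraries, about as much as the astrocyte list. Its sum was highest in male 1, where Dcn made up 18144 of 27662 normalized counts, while the astrocyte sum was highest in female 1. By the mean log2 value over the members, female 2 was highest for the fibroblast list, at 8.12, against 7.63 in male 1.

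Microglial markers were all detected, at a median of 62.5 TPM, and summed to 0.0614% to 0.123%. Csf1r, the receptor that microglia need to survive, varied little, between 251 in male 2 and 394 in female 3. Cx3cr1, a chemokine receptor gene of microglia, lay between 64.0 in female 2 and 135 in female 1. The complement gene C1qa lay between 16.3 in male 2 and 65.1 in female 2.

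Neuronal markers summed to 0.133% to 0.169% of the total, but single members varied more than that sum, with a median log2 SD of 0.80 for those that averaged at least 100. Snap25, a synaptic vesicle fusion gene, had 643, 218 and 839 normalized counts in the females and 377, 219 and 836 in the males. Of 8 motor neuron markers, 3 were at 0 in all 6 libraries, namely Chat, Isl1 and Mnx1, and the list summed to 13.9 to 44.4 normalized counts. The list of excitatory neurons was led by Ebf2, and its vesicular glutamate carrier Slc17a7 was at 0 throughout. In the inhibitory list, Gad1 and Gad2, the genes of the enzymes of GABA synthesis, averaged 19.0 and 19.4 normalized counts. Ependymal markers had a median of 6.83 TPM, and their regulator Foxj1 lay between 41.7 in male 1 and 96.5 in female 3.

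**Figure D3:**
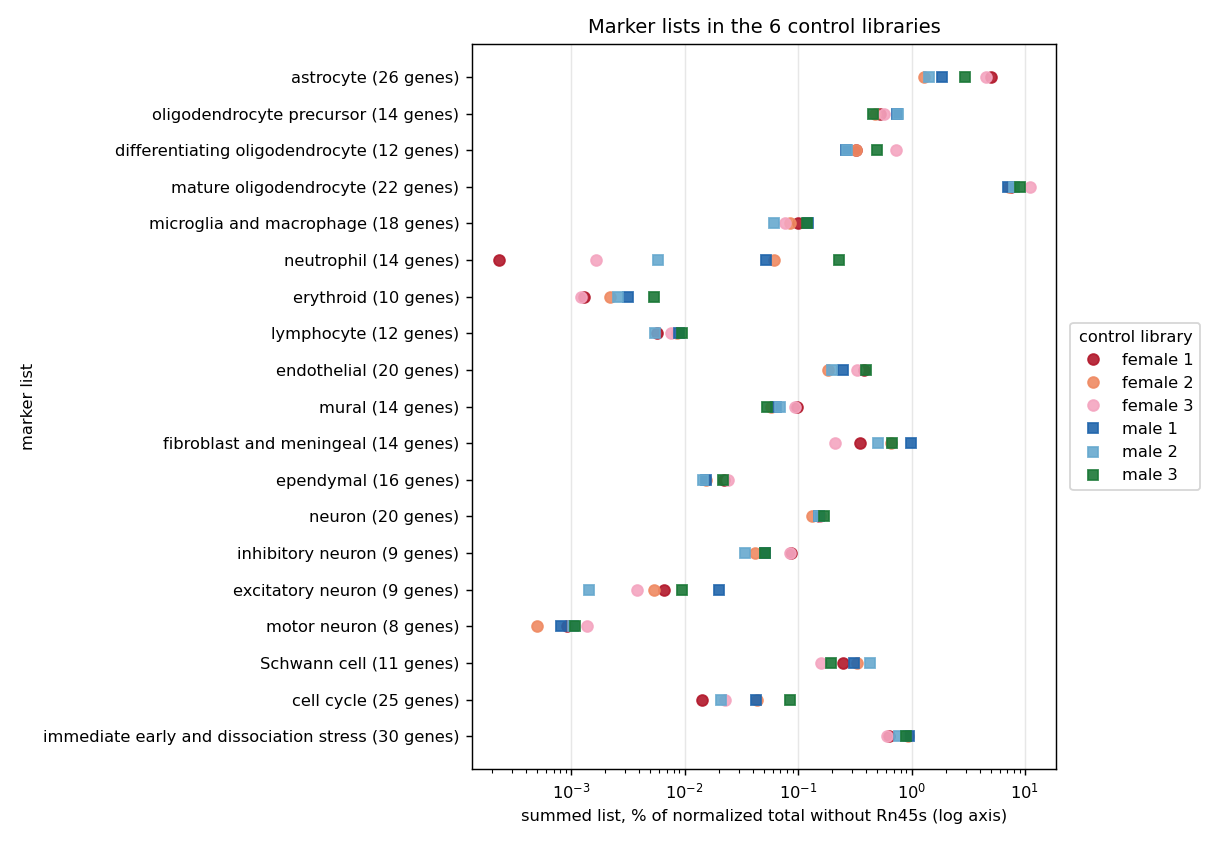
Summed normalized counts of each marker list as a percentage of the library total outside Rn45s (log axis), with 1 point per control library (circles, female; squares, male). The neutrophil list runs between 0.000229% in female 1 and 0.228% in male 3, while the neuron sum stays between 0.133% and 0.169%, although its members vary more.

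Among the 22 lists, the neutrophil list differed most between libraries. Its 14 markers summed to 6.76, 1710 and 53.3 normalized counts in the females and 1442, 174 and 6783 in the males. S100a8, which codes for a subunit of calprotectin, had 0, 169 and 0 in the females and 185, 0 and 1425 in the males. Mpo, the granule peroxidase of immature neutrophils, had 0, 699 and 53.3 in the females and 513, 126 and 1112 in the males. Female 2, male 1 and male 3 were the highest libraries for all 5 neutrophil genes that averaged at least 100, and for 279 of the 5262 such genes overall (5.30%). Neutrophil genes reached that minimum through the libraries where they were high, so the 2 shares are not a fair comparison. Over all 14 markers, without the minimum, the mean log2 value was 0.21, 5.55 and 0.41 in the females and 4.37, 1.62 and 7.54 in the males. Male 3 alone lifted the list's mean, which was 1695 with male 3 and 677 without it. The lymphocyte list varied 1.70-fold and the erythroid list 4.22-fold. Only 1 of the 12 measured lymphocyte genes had reads in all 6 libraries, and 1 averaged at least 100. The median of the lymphocyte list was 0.25 TPM, so its ratio says little of lymphocyte RNA. Red cell genes had few reads. Car1, a carbonic anhydrase gene of red cells, had 0, 8.91 and 0 in the females and 55.8, 0 and 79.3 in the males, with the same 3 highest libraries. The 4 hemoglobin genes Hba-a1, Hba-a2, Hbb-bs and Hbb-bt were listed at 0 in all 6 libraries, where 3 reads would have been 1.25 to 6.43 normalized counts, while Alas2, of red cell heme synthesis, reached 47.1 in male 3. The alpha and beta pairs are near-identical copies whose shared reads may be left uncounted, and how such reads were handled is not given in the sources used here, so these zeros are uncertain.

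Genes of cell division showed the same 3 highest libraries as the neutrophil genes. Mki67, a nuclear protein gene of dividing cells, had 41.8, 318 and 48.2 normalized counts in the females and 324, 58.0 and 851 in the males. Top2a, a DNA topoisomerase gene, had 3.69, 101 and 63.5 in the females and 118, 68.0 and 366 in the males. Only 3 of the 25 cell cycle genes averaged at least 100, and these 3 were highest in female 2, male 1 and male 3. Top2a and Mki67 reached that minimum with the help of their high values in male 3. Over all 25 members the mean log2 value was 2.38, 4.36 and 3.01 in the females and 4.36, 3.40 and 5.50 in the males. Whether the neutrophil and division genes come from the same cells was not tested.

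Immediate-early genes, which are switched on within minutes of stimulation or tissue dissociation, were listed together with genes of dissociation stress. All 30 genes of this list were detected in all 6 libraries, at a median of 113 TPM. They summed to 0.63%, 0.926% and 0.609% of the total in the females and 0.951%, 0.773% and 0.885% in the males. Egr1, a zinc-finger transcription factor gene, stood among the 30 most abundant genes, with 4283, 7792 and 6855 normalized counts in the females and 8313, 5599 and 8675 in the males. Fos, whose start is preceded by the window printed above, had 1752, 2854 and 1672 in the females and 3041, 1985 and 1952 in the males. The sum varied 1.42-fold, and 12 of the 25 members that averaged at least 100 had female 2, male 1 and male 3 as their highest libraries, against 5.30% of all such genes.

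Among all 5262 genes that averaged at least 100, the median log2 SD between the 6 controls was 0.41, and read counting alone would give a median of 0.09. An SD above 1 was found for 166 genes (3.15%) and above 2 for 9. The 20 most variable genes were led by Xist and Ddx3y, which separate the sexes, and then by the neutrophil genes S100a8, Ngp, S100a9, Mpo and Chil3. Without male 3, S100a8, Ngp and Chil3 left the 20, and Xist, Ddx3y, S100a9 and Mpo were the 4 kept whichever library was left out. The 20th, Ext2, had a log2 SD of 1.68, and the 21st 1.59.

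Several of the 20 rested on 1 library. Sfrp4, a secreted Wnt modulator gene, had 19.7, 1560 and 22.9 normalized counts in the females and 29.6, 85.1 and 38.6 in the males. H19, an imprinted non-coding RNA gene, had 45.5, 533 and 12.7 in the females and 136, 108 and 66.4 in the males. Both were highest in female 2, which was also the highest library for Igf2, the imprinted neighbour of H19. Preb, which codes for a protein of vesicle export, had 1736 in male 1 and at most 186 in the others. Mien1 had 1202 in female 3 and at most 117 in the others. Male 3 was the highest library for 8 of the 20 genes and female 1 for 0, and female 1 was the lowest for 10.

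**Figure D4:**
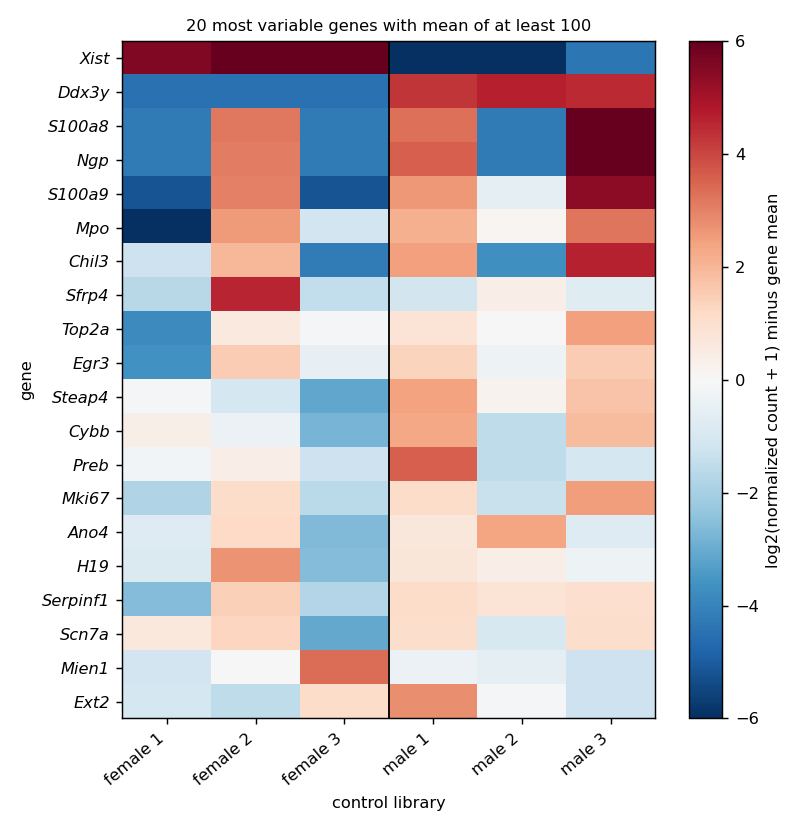
Deviation of each library from the gene's mean of log2(normalized count + 1) for the 20 most variable genes that averaged at least 100, with females left of the line and males right of it; colours are capped at 6 in either direction. Male 3 is the highest library for 8 of the genes and female 1 for 0.

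With a minimum mean of 500 the list changed, and 16 of the 20 most variable genes had female 1, female 3 and male 3 as their 3 highest libraries, against 166 of 1142 such genes (14.5%). Genes named here beyond the fixed choice were picked after their values were seen. They include the astrocyte genes Gfap, Gjb6, Slc1a2 and Aqp4, and the kinesin motor genes Kif5a and Kif5c. Kif5a had 2978, 1023 and 7561 normalized counts in the females and 1518, 753 and 5812 in the males. Trak2, an adaptor gene for kinesin-borne mitochondria, had 1817, 1416 and 7205 in the females and 1272, 810 and 3849 in the males. For Trak2 and Kif5a, as for Mbp and Bcas1, female 3 was the highest library and male 3 the next.

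The most steady genes were ranked among the 1142 that averaged at least 500. A log2 SD under 0.2 was found for 176 genes (15.4%). Msn, the gene of the membrane-cytoskeleton linker moesin (chrX:96096042-96168552, plus strand), had 690, 680 and 710 normalized counts in the females and 669, 685 and 664 in the males. Its log2 SD of 0.03 was under the 0.05 of read counting. Ctnnb1, which codes for beta-catenin, followed with 926, 905 and 929 in the females and 1005, 918 and 1020 in the males. Lifr, the receptor gene for leukemia inhibitory factor, lay between 662 in female 1 and 772 in female 3, and Spag9, a kinase scaffold gene, between 2412 in male 1 and 2784 in female 2. No library stood apart for these 4 genes.

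The others of the 20 included Arhgap21, Cnot1, Gm1821, Rpl4, Ranbp2, Capns1, Scaf11, Rabgap1l, Rap1a, Selt, Msi2, H3f3b, Actg1, Chd4 and Nufip2, with a log2 SD of up to 0.11. Rpl4 and Actg1 belong to families with near-identical copies, and their reads may be split among them. Actg1, the gamma-actin gene, lay between 2067 in male 1 and 2579 in female 3. The 27 housekeeping genes as a list summed to 1.19% to 1.40% of the total, varied 1.15-fold and had a median log2 SD of 0.29.

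**Figure D5:**
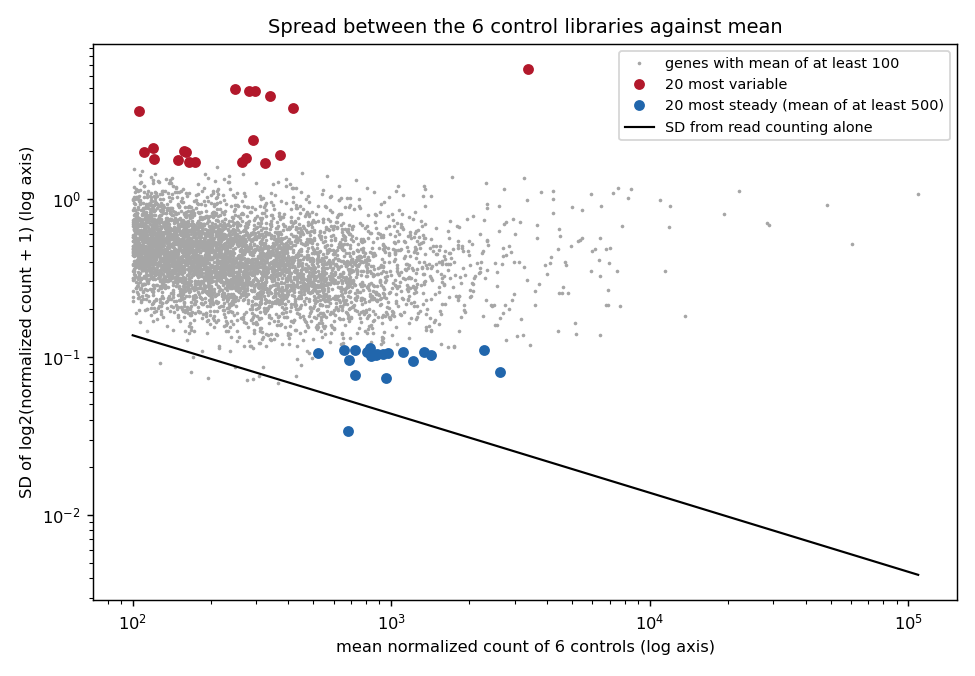
SD of log2(normalized count + 1) over the 6 control libraries against the mean normalized count (both axes log) for genes that averaged at least 100, with the 20 most variable and the 20 most steady genes marked and a line for the SD that read counting alone gives. Msn is the marked steady gene below the line, with an SD of 0.03.

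The spread was set beside that of 5 cKO libraries. The cKO libraries labelled female replicate 2 and male replicate 2 agreed within counting noise (chi-square per degree of freedom 1.06), although their sex labels differ. The male-labelled one was left out. Of the 20 most variable genes in the controls, 15 also had a log2 SD above 1 in the cKO libraries, where 7.03% of the genes that averaged at least 100 did. The 15 are not independent of one another. They include Xist and Ddx3y, at 5.98 and 5.04, which separate the sexes. They also include the neutrophil genes S100a8, Ngp, S100a9, Mpo and Chil3, which shared their highest libraries in the controls. Of the 20 most steady, 16 were below the median of the cKO libraries, which was 0.37 for genes that averaged at least 500. Msn was not among the steadier ones there, with a log2 SD of 0.53. The astrocyte list's median log2 SD was 0.99 in the controls and 0.61 in the cKO libraries.

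Between the sexes, 5 of 12176 genes differed in the controls (limma, adjusted p under 0.05), which is 0.0411% of those tested. Xist, the non-coding RNA that silences 1 X chromosome, had 4988, 7278 and 7984 normalized counts in the females and 0, 0 and 4.29 in the males (log2 difference 11.89, SE 0.57, limma adjusted p = 1.0683e-08). Xist overlaps an antisense gene, Tsix, and the strand setting of the counting is not given in the sources used here. The other 4 are on the Y chromosome and had 0 reads in every female. Ddx3y averaged 499 ± 63.7 in the males, Uty 168 ± 51.8, Kdm5d 133 ± 14.1 and Eif2s3y 89.8 ± 31.7 (SD, n = 3 libraries), with limma adjusted p of 3.3267e-06, 0.0014367, 0.0031889 and 0.030341. Their fitted differences depend on the pseudocount and are no bounds. Without any 1 of the male libraries, Uty, Kdm5d and Eif2s3y lost the call, and Xist and Ddx3y remained.

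No autosomal gene passed, and for the rest of the genes the smallest limma adjusted p was 0.99968, with 411 genes at an unadjusted p under 0.05. The values of the sexes did not overlap for 964 genes (7.92%), with 369 higher in the females (3.03%) and 595 lower (4.89%). With 3 libraries per sex, values often separate in this way by chance, so these counts by themselves show no difference between the sexes. Apod was among the abundant genes whose sexes did not overlap, and its difference did not pass the limma test. The astrocyte sum overlapped between the sexes, at 35824 to 147352 normalized counts in the females and 42042 to 87475 in the males.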

How the data were processed

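Per the labels' protocols, 10 ng of total RNA from sorted spinal cord cells went into Trio RNA-seq V2 libraries that were sequenced as read pairs. The submitters' processing notes name STAR 2.5.0a, DESeq2 1.20.0, FastQC 0.10.1, MultiQC 0.9 and mm10, without roles; the counting tool, annotation and strand setting are not given in the sources used here. The authors deposited a normalized signal per gene and library. It equals whole read counts divided by 1 factor for each library: with that factor undone, 100% of the nonzero values were whole within 0.01, and these recovered counts give the depths.

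Spread is the SD of log2(value + 1), with a mean of at least 100 for variable and 500 for steady genes. TPM used GENCODE M21 exon lengths (GRCm38, at least 200 bases), taken as the union of all annotated exons of a gene. By symbol 23349 entries matched, 668 through an older symbol and 404 not at all. The text names the 30 highest, 20 most variable and 20 most steady genes, up to 6 members of each list, classical markers and genes called between the sexes. The members, lists and tests were chosen with earlier results of these data known. Entries that are dates in place of symbols (27) are not named. Female minus male controls were tested with limma 3.58.1 (trend, robust) in R 4.3.3 on log2(value + 1), keeping genes that reached 10 in 3 or more libraries, and adjusted by Benjamini-Hochberg at 0.05. edgeR 4.0.16 on the recovered counts called 5 genes. DESeq2 1.42.0, another scaling, pseudocount, filter and leaving out each library were alternatives. The steps were tested on simulated data. Counting SDs and limits cover counting error only, since the reads carry no molecular identifiers. Slc1a3 and some other list genes were not analysed here, and a few genes are counted but not reported by name.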

Additional observations from a re-analysis of the deposited data

Results flagged for a closer look

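Of 104 sets of 6 control values examined, 13 had their highest library far from the next one, measured as the gap against the whole range; chance alone flags about 1 set in 20 of evenly spread values. That rate cannot be applied here, since 11 of the 13 are genes chosen as the most variable between these same libraries, and another is the neutrophil list that holds some of them. Male 3 was the far library in 7 of them: the summed neutrophil list (6783), S100a8 (1425), Ngp (1297), S100a9 (1500), Chil3 (454), Top2a (366) and Mki67 (851), all in normalized counts. These genes were therefore not independent flags, since 5 of the 7 values are the neutrophil list or its members. Female 2 stood apart for Sfrp4 at 1560, H19 at 533 and Capns1 at 1065. Male 1 stood apart for Preb at 1736 and Ext2 at 1210. Female 3 stood apart for Mien1 at 1202. Male 3 had the fewest reads of the controls, and the part of depth in these values was not tested.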

How the results depend on the processing

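Of the 30 most abundant genes, 30 were kept with RPM values outside Rn45s, 27 with a geometric mean, 19 with TPM and 27 to 30 without 1 library. Of the 20 most variable, 19 were kept with RPM, 19 with a pseudocount of 10, 20 with counting variance subtracted, 16 with the SD pooled within the sexes, 14 to 19 without 1 library and 1 with a mean of at least 500, a minimum that removes most of them. In all, 0 variable genes were kept under every setting, and 4 were kept without each library. Of the 20 most steady, 20 were kept with a pseudocount of 10, 12 with RPM, 10 with a mean of at least 200, 11 with the SD within the sexes and 8 to 13 without 1 library; 4 were kept under every setting. The cause was not tested. The high-to-low ratio of the astrocyte sum was 4.11, 3.88 with RPM and 3.50 to 4.11 without 1 library. All 154 recomputed list means moved by less than 1 SD. Where 1 of 6 libraries was left out, arithmetic allows no other outcome, so this shows no robustness. Only the RPM values could have moved a list mean further. The neutrophil mean fell to 677 without male 3. The 5 genes called between the sexes were also called with RPM, a pseudocount of 10, no filter and edgeR; DESeq2 called 7, with Heph and Steap4 added. Without 1 library the count was 2 to 8. It was 2 without male 1, male 2 or male 3, and 8 without female 2, with Gfap, S100a9 and Serpinf1 added. Adjusted p over these alternatives ran to 0.583 for Uty, 0.664 for Kdm5d and 0.9996 for Eif2s3y.

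Replicate numbers are shared between the sexes, but same-numbered libraries did not deviate together (correlations of -0.0028, 0.0203 and 0.0704). With the replicate block, 6 genes were called, with Matn2 added.

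The controls are 6 libraries of unequal depth, so low genes are read most poorly in male 3, where 3 reads are 6.43 normalized counts. A missed call between the sexes does not show equal levels.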
